A study of Mus musculus with 2 samples.

Results

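The Hox genes encode homeodomain transcription factors that give cells along the body axis their positional identity. In the mouse they lie in 4 clusters, Hoxa, Hoxb, Hoxc and Hoxd, in which genes with low numbers sit at the end that is used early and towards the head and genes with high numbers at the end that is used late and towards the tail. Outside their domains of use the clusters are kept compact by Polycomb complexes, and retinoic acid opens them from the low-numbered end. In the adult mammary gland several Hox genes of the middle groups are known to act in ductal and lobular growth, and in blood cells the Hoxa and Hoxb clusters are known for their part in progenitors. All protein-coding genes of the GENCODE annotation of mm10 with the symbol Hoxa, Hoxb, Hoxc or Hoxd and a number were taken here, which gave 39 of 21911 coding genes. With them were taken all accessible regions between the first and the last gene of each cluster and within 2 kb on each side, 105 of 275294 regions of the genome.

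Chromatin accessibility was measured by single-cell ATAC-seq, in which a transposase cuts open chromatin in single nuclei, in mammary gland organoids of C57BL/6J mice. All organoids carried 1 allele of a knocked-in, doxycycline-inducible short hairpin RNA against Trps1 (shTRPS1.34 ki/+) and the transgene CAG-rtTA3 tg/+, whose CAG promoter drives the doxycycline-dependent activator in most cell types. TRPS1 is a repressor of the GATA family. For 7 days the organoids received doxycycline at 0.1 µg/ml (DOX) or its solvent, ethanol (EtOH), and the cells of several mice were mixed, so that no mouse could be followed. Each group had 1 library, so that no difference between them could be tested against replicates, and the actions of doxycycline and of the hairpin cannot be told apart. All intervals are 95% intervals for counting error only. The mice were adults by the methods of the study, and the labels give no age for those used here.

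The DOX library held 3071 nuclei with 224762118 counts and the EtOH library 3104 nuclei with 211963715 counts, with a median of 75296 and 66789.5 counts per nucleus and 23 barcodes in common. Nuclei were grouped without the Hox regions. Epithelial nuclei made up 1730 in DOX (56.3%) and 2789 in EtOH (89.9%), and immune-like nuclei 1283 (41.8%) and 283 (9.12%). In the immune-like nuclei 7 of 8 immune marker genes were more accessible than in epithelial nuclei of the same library (median log2 ratio 3.43 in DOX and 3.39 in EtOH, Cd3e being lower), and 11 of 11 pan-epithelial markers were less accessible (median -2.61 and -3.11). The classes were named from these same marker lists, so these values describe the naming and are no independent evidence for it. The epithelial nuclei of the libraries fell mostly into different groups: 1364 of the 1730 in DOX were in an unnamed group (cluster 0) that held 13 EtOH nuclei, and 1215 of the 2789 in EtOH were in a luminal progenitor-like group (cluster 1) that held 36 DOX nuclei. Every epithelial DOX to EtOH ratio below therefore also compares these groups of nuclei, and whether they stand apart by treatment, by library or by cell state cannot be told apart. The groups with at least 50 nuclei of both libraries were the hormone-sensing luminal-like cluster 4 (96 DOX and 488 EtOH nuclei), the basal-like cluster 7 (77 and 130) and the immune-like clusters 2 (606 and 145) and 3 (549 and 134). At the start sites of Trps1, summed over all annotated ones, accessibility in epithelial nuclei was 28.7 CPM in DOX and 22.7 CPM in EtOH (log2 ratio 0.34, interval 0.25 to 0.43). A hairpin acts on RNA, so this is no measure of the knockdown. CPM are counts per 1000000 counts in regions with a peak in both libraries, called shared regions.

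The 4 clusters are gene-dense, CpG-rich stretches, and their central sequences are shown first because the comparisons below return to them. The following lines give the central 300 bp of 4 shared regions, read from GRCm38.p6 on the plus strand. Regions are numbered along the chromosome in each cluster. Hoxa_r2 (chr6:52160173-52160472) lies between genes, past the 3′ end of Hoxa2, and was the region of the Hoxa cluster most in favour of immune-like nuclei. Hoxa_r7 (chr6:52191848-52192147) is the promoter region of Hoxa4, also in favour of immune-like nuclei. Hoxb_r31 (chr11:96334917-96335216) lies in an intron of Hoxb3 and separated the luminal classes. Hoxb_r40 (chr11:96366627-96366926) covers a coding exon of Hoxb1, the gene with the highest epithelial accessibility. In these lines capitals mark CpG.
Hoxa_r2: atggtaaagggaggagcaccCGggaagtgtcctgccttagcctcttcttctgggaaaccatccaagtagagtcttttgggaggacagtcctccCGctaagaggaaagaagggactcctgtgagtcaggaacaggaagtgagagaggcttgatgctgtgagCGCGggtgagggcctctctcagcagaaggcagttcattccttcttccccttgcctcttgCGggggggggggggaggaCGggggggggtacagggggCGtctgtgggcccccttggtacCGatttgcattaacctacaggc
Hoxa_r7: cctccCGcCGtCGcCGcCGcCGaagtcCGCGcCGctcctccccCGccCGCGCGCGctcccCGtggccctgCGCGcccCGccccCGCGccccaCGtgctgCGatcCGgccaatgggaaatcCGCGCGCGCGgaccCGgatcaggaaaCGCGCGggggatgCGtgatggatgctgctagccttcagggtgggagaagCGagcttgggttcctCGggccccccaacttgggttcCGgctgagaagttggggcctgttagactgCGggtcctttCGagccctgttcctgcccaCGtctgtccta
Hoxb_r31: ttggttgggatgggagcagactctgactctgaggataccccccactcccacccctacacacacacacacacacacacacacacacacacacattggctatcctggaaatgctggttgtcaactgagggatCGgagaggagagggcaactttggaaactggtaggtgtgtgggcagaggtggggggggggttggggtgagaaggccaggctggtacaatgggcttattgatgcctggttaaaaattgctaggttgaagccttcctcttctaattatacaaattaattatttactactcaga
Hoxb_r40: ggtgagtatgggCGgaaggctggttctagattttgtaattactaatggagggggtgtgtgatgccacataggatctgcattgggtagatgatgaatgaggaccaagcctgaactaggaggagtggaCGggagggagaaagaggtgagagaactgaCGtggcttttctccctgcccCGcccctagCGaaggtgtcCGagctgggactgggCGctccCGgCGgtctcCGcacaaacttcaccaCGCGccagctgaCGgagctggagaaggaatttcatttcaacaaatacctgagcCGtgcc

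GATA motifs were searched because TRPS1 belongs to the GATA family. From its single-cell ATAC-seq of organoids the study reported far higher accessibility of GATA motifs after doxycycline, in every group of cells. In sorted luminal cells it found TRPS1 binding sites enriched for C2H2 zinc finger motifs. The study proposes that TRPS1 acts there more through those fingers than through its GATA domain. The letters searched were AGATAA or AGATAG and TGATAA or TGATAG on both strands. Hoxc_r5 (chr15:102953499-102953798) lies just before Hoxc11 and held 2 matches. In its line capitals mark them.
Hoxc_r5: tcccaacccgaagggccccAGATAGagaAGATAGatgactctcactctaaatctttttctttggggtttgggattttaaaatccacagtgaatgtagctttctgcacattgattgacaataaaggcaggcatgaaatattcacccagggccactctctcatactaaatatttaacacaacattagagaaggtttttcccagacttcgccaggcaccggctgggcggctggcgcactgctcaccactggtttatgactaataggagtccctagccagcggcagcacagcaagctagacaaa

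Of the 80 shared regions in the clusters, 14 (17.5%) held a GATA match in their central 300 bp, against 34.5% of all 174940 shared regions. Base composition moved with this share, and its part in it was not tested. The median GC content was 59.5% in the Hox regions and 48.0% in all, and the median number of CpG was 18 against 3. At promoters of members 5 of 33 regions (15.2%) held a match, near the 15.7% of shared regions at all coding promoters, and elsewhere in the clusters 9 of 47 (19.1%) did, against 36.4% of shared regions away from promoters. Across the genome the regions with a match were at least 2-fold higher in DOX epithelial nuclei in 10.5% of cases and those without in 2.73%. At coding promoters, where fewer regions changed, the shares were 3.73% and 0.524%. In the Hox clusters 0 of 14 regions with a match and 0 of 66 without were at least 2-fold higher, with medians of -0.02 and -0.03. The core of the CTCF motif was found in 0 of 80 Hox regions and in 3.55% of all. A direct repeat of AGGTCA with 5 bases between its copies (DR5), the form that retinoic acid receptors are known to bind, was found in 0 of 80 and in 39 of all shared regions. A missing match says only that these letters are not in the central 300 bp. Of the 39 members 22 were found in the table of RefSeq promoters of the same build, and 6 of these (27.3%) held a GATA match in the 300 bases around the start, against 29.8% of 32851 promoters.

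The Hox clusters carried about as many accessible regions per length in DOX as in EtOH, and most were found in both. Of the 105 regions 80 (76.2%, interval 66.9 to 84.0) were shared, 11 had a peak only in DOX and 14 only in EtOH, where 63.5% of the 275294 regions of the genome were shared. The clusters were covered by regions over 18.4% of their length, against 8.98% of the genome, at 20.7 regions per 100 kb against 10.1. Hoxa (chr6:52153590-52262880, minus strand, 11 genes) held 23 regions, Hoxb (chr11:96192316-96370256, plus strand, 10 genes) 40, Hoxc (chr15:102919103-103038852, plus strand, 9 genes) 24 and Hoxd (chr2:74666310-74767142, plus strand, 9 genes) 18. The regions of 1 library alone were weak: they held 134 to 509 counts in DOX and 105 to 530 in EtOH, whereas the median shared region held 659 and 596. They took 3.94% of the cluster counts in DOX and 5.06% in EtOH. A region with a peak in 1 library has no deposited count in the other, and so enters no ratio.

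Each of the 80 shared regions was made of 1 peak per library, and those peaks overlapped by a median of 95.7% of the longer one. In 2 regions the overlap was far lower: Hoxc_r19, in an intron of the long Hoxc5 and Hoxc6 transcripts, with an overlap of 22.8%, and Hoxd_r16, between Hoxd3 and Hoxd1, with 40.4%. The next lowest overlap was 72.0%. The counts of those 2 regions were taken over partly different bases in DOX and in EtOH, which bears on their ratios below.

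Of the 39 members 31 had a shared region within 1 kb of their start site. Hoxa13, Hoxb3, Hoxb13, Hoxc4, Hoxc12, Hoxd3, Hoxd4 and Hoxd12 had none. Among these, Hoxa13 and Hoxd3 had a region at the start site in DOX alone and Hoxc4 and Hoxd4 in EtOH alone. For Hoxa3 the start site of the principal coding transcript was used, which lies beyond Hoxa6, so that its 2 regions lie between Hoxa6 and Hoxa7. For Hoxb1 and Hoxc13 the region called the promoter is centred 1024 bp and 961 bp past the start site, in the gene body, and for Hoxa2 it lies before the start site, with its centre at -1183 bp.

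Hox promoters were weakly accessible in the epithelium. The median over the 31 promoters was 2.90 CPM per kb of region in DOX and 3.20 in EtOH, against 22.97 and 22.5 for all 15253 promoters, and 0 of 31 lay above that median in either library. Hoxb1, a gene of hindbrain patterning, was the highest in both, with 18.5 CPM per kb in DOX and 16.8 in EtOH from 2113 and 2781 counts. Hoxb4, known from blood stem cells, had 11.8 and 12.9, and Hoxb5 8.20 and 8.05. In EtOH the order Hoxb1, Hoxb4, Hoxb5, Hoxb2 was set by intervals that did not overlap, and below Hoxb2 no neighbours in the order were apart. In DOX the neighbours Hoxb4 and Hoxb5 were apart, and below Hoxb5 the pair Hoxa5 and Hoxb9 alone was. At the low end stood Hoxb8 (1.02 CPM per kb in EtOH), Hoxd10 (1.13) and Hoxc9 (1.29), whose intervals overlapped.

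The highest epithelial promoters in EtOH were Hoxb1 in the Hoxb, Hoxc13 in the Hoxc and Hoxd9 in the Hoxd cluster. Hoxc13, which acts in hair and nail, had 5.86 CPM per kb in DOX and 5.42 in EtOH, and Hoxd9, a limb and mammary gene, 3.93 and 3.66. Along the clusters, levels in epithelial nuclei were higher at low numbers in Hoxa (Spearman's rho with the gene number -0.75 in DOX and -0.62 in EtOH over 10 genes) and in Hoxb (-0.76 and -0.79 over 8 genes), with 0.07 and 0.07 in Hoxc over 7 genes and -0.20 and -0.37 in Hoxd over 6 genes. In immune-like nuclei the values were -0.39 and -0.49 in Hoxa, 0.17 and 0.07 in Hoxb, -0.61 and -0.57 in Hoxc and -0.26 and -0.37 in Hoxd. These are descriptions across genes of the same nuclei, which share libraries and depth.

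**Figure D1:**
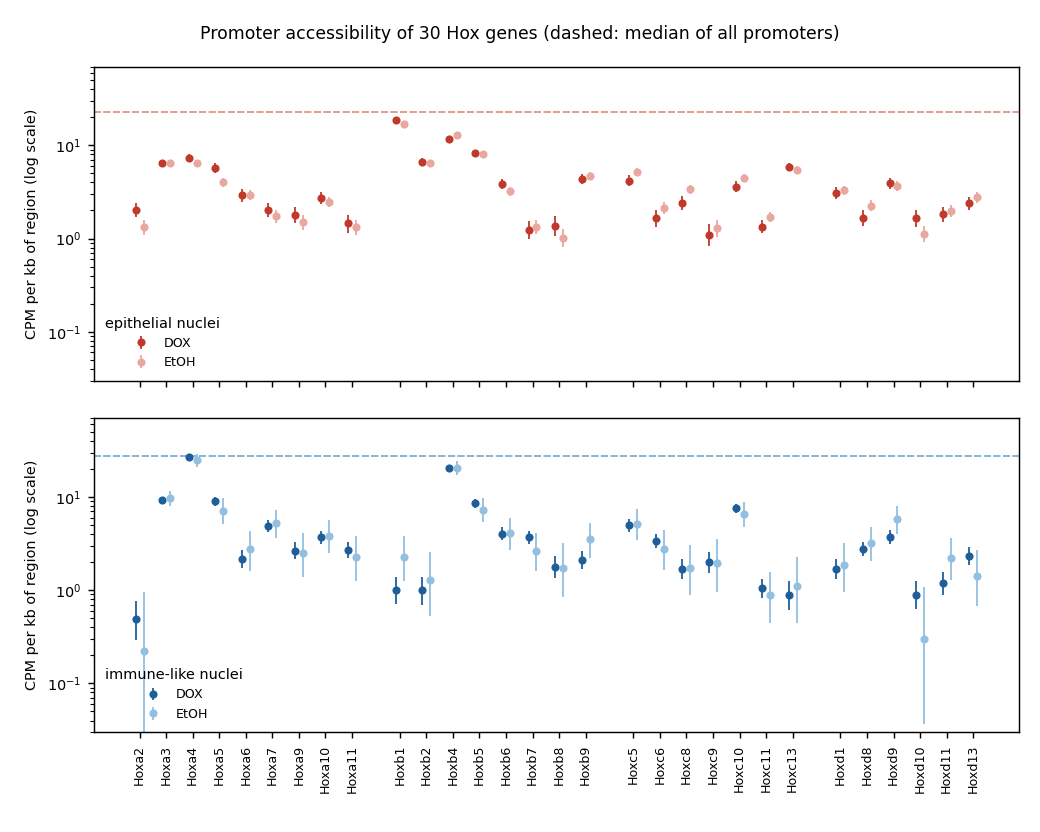
Accessibility of 30 Hox promoters with a shared region, in CPM per kb of region on a log scale, in epithelial nuclei (top) and immune-like nuclei (bottom) of DOX and EtOH. Points are the values of 1 library each, bars are 95% intervals for counting error, and dashed lines are the medians of all promoters. In epithelial nuclei all points lie below the dashed lines at 22.97 and 22.5, and in immune-like nuclei Hoxa4 comes nearest to them, while the interval of Hoxa2 in EtOH runs past the lower edge.

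The immune-like nuclei used the clusters differently, though most Hox promoters were weak there too. Their median over the 31 promoters was 2.73 CPM per kb in DOX and 2.74 in EtOH. There Hoxa4 stood at 26.6 CPM per kb in DOX and 24.7 in EtOH, near the medians of all promoters of 27.2 and 27.5, and Hoxb4 at 20.5 and 20.4. Hoxb1, the highest in the epithelium, had 1.00 and 2.28, and Hoxa2 had 0.49 and 0.23 from 38 and 3 counts. The share of nuclei with a count at Hoxb1 was 41.8% and 36.4% of epithelial but 3.43% and 4.59% of immune-like nuclei in DOX and EtOH. With every nucleus thinned to 20000 counts those shares were 23.9% and 21.3% against 1.5% and 2.78%. At Hoxa4 the thinned shares were 9.19% and 8.39% of epithelial and 32.9% and 29.0% of immune-like nuclei (19.5%, 16.0%, 50.4% and 41.3% unthinned). Thinning left out 229 and 297 epithelial and 83 and 31 immune-like nuclei that were shallower.

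The first comparison asked whether the Hox clusters opened or closed in the epithelium after doxycycline. Over all epithelial nuclei the summed accessibility of each cluster differed little. Hoxa had 74.1 CPM in DOX and 67.6 CPM in EtOH (log2 ratio 0.13, interval 0.08 to 0.19). Hoxb had 162 and 154 (0.07, 0.03 to 0.11), Hoxc 49.1 and 52.3 (-0.09, -0.16 to -0.03) and Hoxd 28.8 and 30.2 (-0.07, -0.16 to 0.02). Over all 4 the values were 314 and 304 CPM. The median log2 ratio was 0.02 over all promoters and -0.06 over all shared regions, so that the Hoxd sum lay at the median of all regions.

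None of the 31 promoters differed by 2-fold between DOX and EtOH epithelial nuclei, with 0 called higher and 0 called lower. Among all promoters tested 0.826% were higher and 1.09% lower, so fewer than 1 called member in each direction would be in proportion. The intervals of 7 members lay above 0 and those of 5 below, out of 31, where 23.2% and 14.6% of all promoters did so. By cluster, beside a median of 0.02 over all promoters, in Hoxa 9 of 10 promoters had a ratio above 0 (median 0.22), in Hoxb 5 of 8 (0.04), in Hoxc 1 of 7 (-0.31) and in Hoxd 2 of 6 (-0.11). The differences between the clusters were not tested.

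In the Hoxa cluster, Hoxa5, a gene of lung and mammary development, had 598 counts (5.74 CPM per kb) in DOX and 611 (4.04) in EtOH, a log2 ratio of 0.51 (0.27 to 0.74), which turned to -0.13 with equal weight for the hormone-sensing luminal-like cluster 4 and the basal-like cluster 7. That weighting leaves out all other epithelial nuclei. For Hoxa5 it rests on 19 DOX and 92 EtOH counts in cluster 4 and 15 and 25 in cluster 7. Hoxa2, which patterns the second branchial arch, had 244 and 231 counts (0.62, 0.24 to 1.00). Hoxa4 (0.21), Hoxb6 (0.26), Hoxb1 (0.14) and Hoxd10 (0.54) also had intervals above 0, and Hoxb1 was at -0.26 under that weighting. Hoxb8 had 0.43, with an interval of -0.06 to 0.91.

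In the Hoxc cluster, Hoxc8, a gene of the mid-trunk and of the mammary line, had 286 counts (2.40 CPM per kb) in DOX and 583 (3.37) in EtOH, a log2 ratio of -0.49 (-0.79 to -0.20). Hoxc6, known to act in mammary ductal growth, had 191 and 357 counts, and its interval reached 0 (-0.36, -0.74 to 0.00). Hoxc10 and Hoxc11, genes of the lumbar region, had -0.31 (-0.56 to -0.07) and -0.35 (-0.65 to -0.06), and Hoxc10 turned to 0.07 with equal weight for clusters 4 and 7. Hoxc5 had -0.31, but 0.30 over the regions within 2 kb of its start site, and, outside this cluster, Hoxd8 had -0.43 (-0.77 to -0.10). All of these differences were below 2-fold, and every value rests on 1 library per group.

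**Figure D2:**
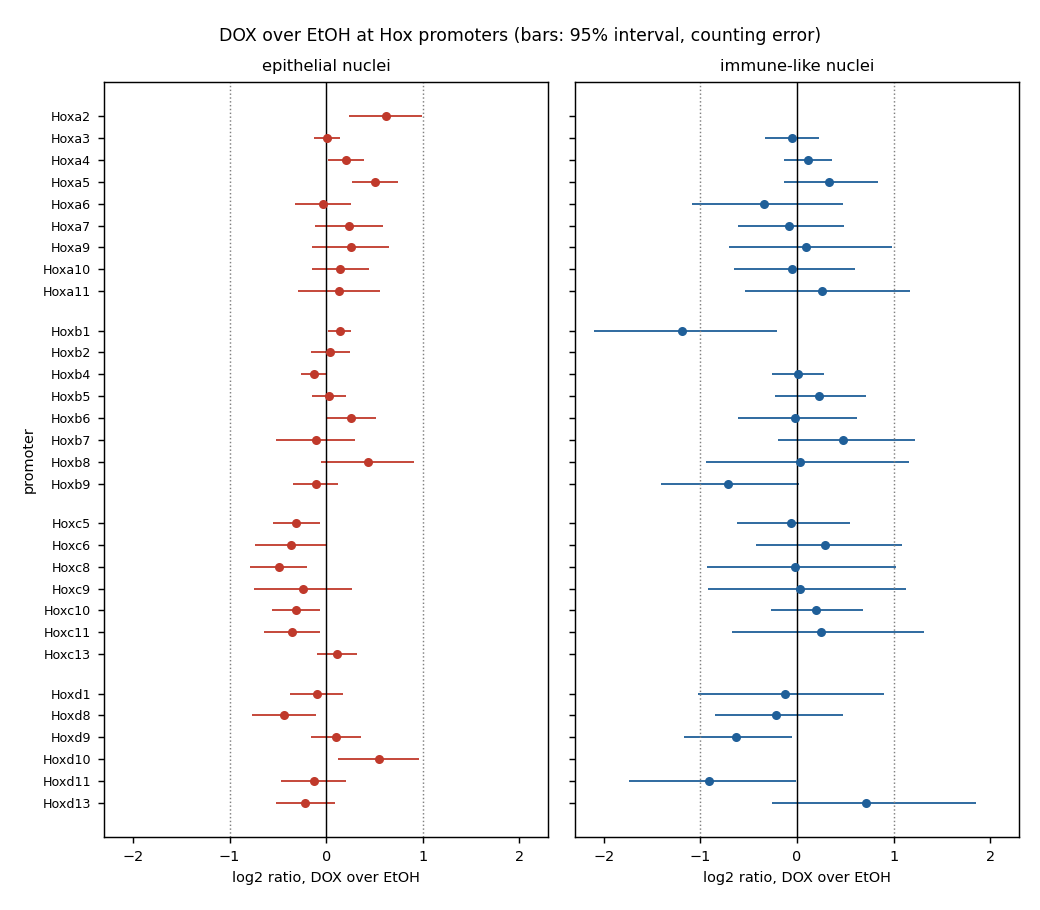
log2 ratio of DOX over EtOH at the promoter of each Hox gene in epithelial nuclei (left, 30 promoters) and immune-like nuclei (right, 26 promoters with at least 100 counts). Bars are 95% intervals for counting error, and dotted lines mark 2-fold. Every epithelial point lies between the dotted lines, and Hoxb1 is the only immune-like point beyond them, at -1.19.

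Over all shared regions, in DOX epithelial nuclei 0 of 80 were called higher and 1 lower at 2-fold, against 5.39% and 8.6% of all regions tested. Of these 80, 33 lay at member promoters with 0 called, and elsewhere in the clusters 0 of 47 were higher and 1 lower. The 1 lower region was Hoxd_r16, with 48 counts in DOX and 177 in EtOH (-1.35, -2.06 to -0.68), and the next lowest was Hoxc_r19, with 59 and 159 (-0.89, -1.55 to -0.27). These are the 2 regions whose peaks overlapped poorly between the libraries. Both had the opposite direction in immune-like nuclei, where Hoxd_r16 had 496 and 25 counts (1.77) and Hoxc_r19 151 and 9 (1.53). Under a stricter rule for the overlap of the peaks both dropped out and 0 regions were called.

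The homeobox lies in the last coding exon of Hox genes. In Hoxc5 the exon region Hoxc_r22, which held the most counts in the Hoxc cluster, had 1341 counts in DOX and 1310 in EtOH (0.57, 0.41 to 0.73), whereas the promoter of the gene had -0.31. The promoter region of Hoxb4, Hoxb_r25, which held the most counts of the Hoxb cluster over all nuclei, had 1396 and 2208 (-0.12, -0.26 to 0.01). Hoxb_r15 in Hoxb8 was also at the high end (0.63), and at the low end were Hoxc_r5 before Hoxc11, with 2 GATA matches (-0.66), and Hoxb_r8 between Hoxb13 and Hoxb9 (-0.45). The region with the most counts in the Hoxd cluster was Hoxd_r3, which lies between genes (-0.15), and the lowest ratio in Hoxa was that of Hoxa_r4 (-0.12).

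The exon region varied between the groups of epithelial nuclei within each library. Hoxc_r22 had 9.89 CPM in cluster 0 of DOX, 6.38 CPM in cluster 1 of EtOH, 7.06 and 5.32 CPM in cluster 4 and 23.8 and 17.7 CPM in cluster 7.

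Within the epithelial groups that both libraries shared, calls were made in both directions. In cluster 4 it was 1 higher and 0 lower of 42 tested, against 1.66% and 4.13% of all regions. The 1 was the promoter region of Hoxa6, with 7.59 CPM in DOX and 3.31 CPM in EtOH (1.2, 0.50 to 1.87). In cluster 7 it was 1 higher and 3 lower of 19 tested, against 2.48% and 3.42%, so that a larger share of the Hox regions than of all regions was called there. The lower ones were the promoter region of Hoxc5 (3.73 against 8.06 CPM), Hoxb_r29 in Hoxb3 (3.73 against 7.56 CPM) and Hoxc_r18 in an intron of the same long transcripts (4.97 against 13.0 CPM, -1.39, -2.28 to -0.59). In cluster 4 the Hoxc5 region had 6.28 CPM in DOX and 3.76 CPM in EtOH (0.74, -0.003 to 1.44). Hoxc_r18 had 5.75 and 5.89 CPM there (-0.03, -0.77 to 0.64), and Hoxb_r29 2.49 and 1.11 CPM with too few counts to be tested. The Hoxc sum in cluster 7 was 76.8 CPM in DOX and 94.2 CPM in EtOH (-0.29, -0.52 to -0.07), whereas in cluster 4 it was 54.0 and 49.6 CPM (0.12, -0.11 to 0.34). In cluster 4 the Hoxa sum was 82.0 and 63.7 CPM (0.36, 0.18 to 0.55) and the Hoxd sum 33.2 and 25.3 CPM (0.39, 0.10 to 0.68). In cluster 7 these sums were 62.6 and 61.1 CPM (0.03, -0.23 to 0.30) and 23.6 and 29.8 CPM (-0.34, -0.76 to 0.07). The Hoxb ratios were -0.02 (-0.15 to 0.12) in cluster 4 and 0.16 (-0.0004 to 0.31) in cluster 7.

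**Figure D3:**
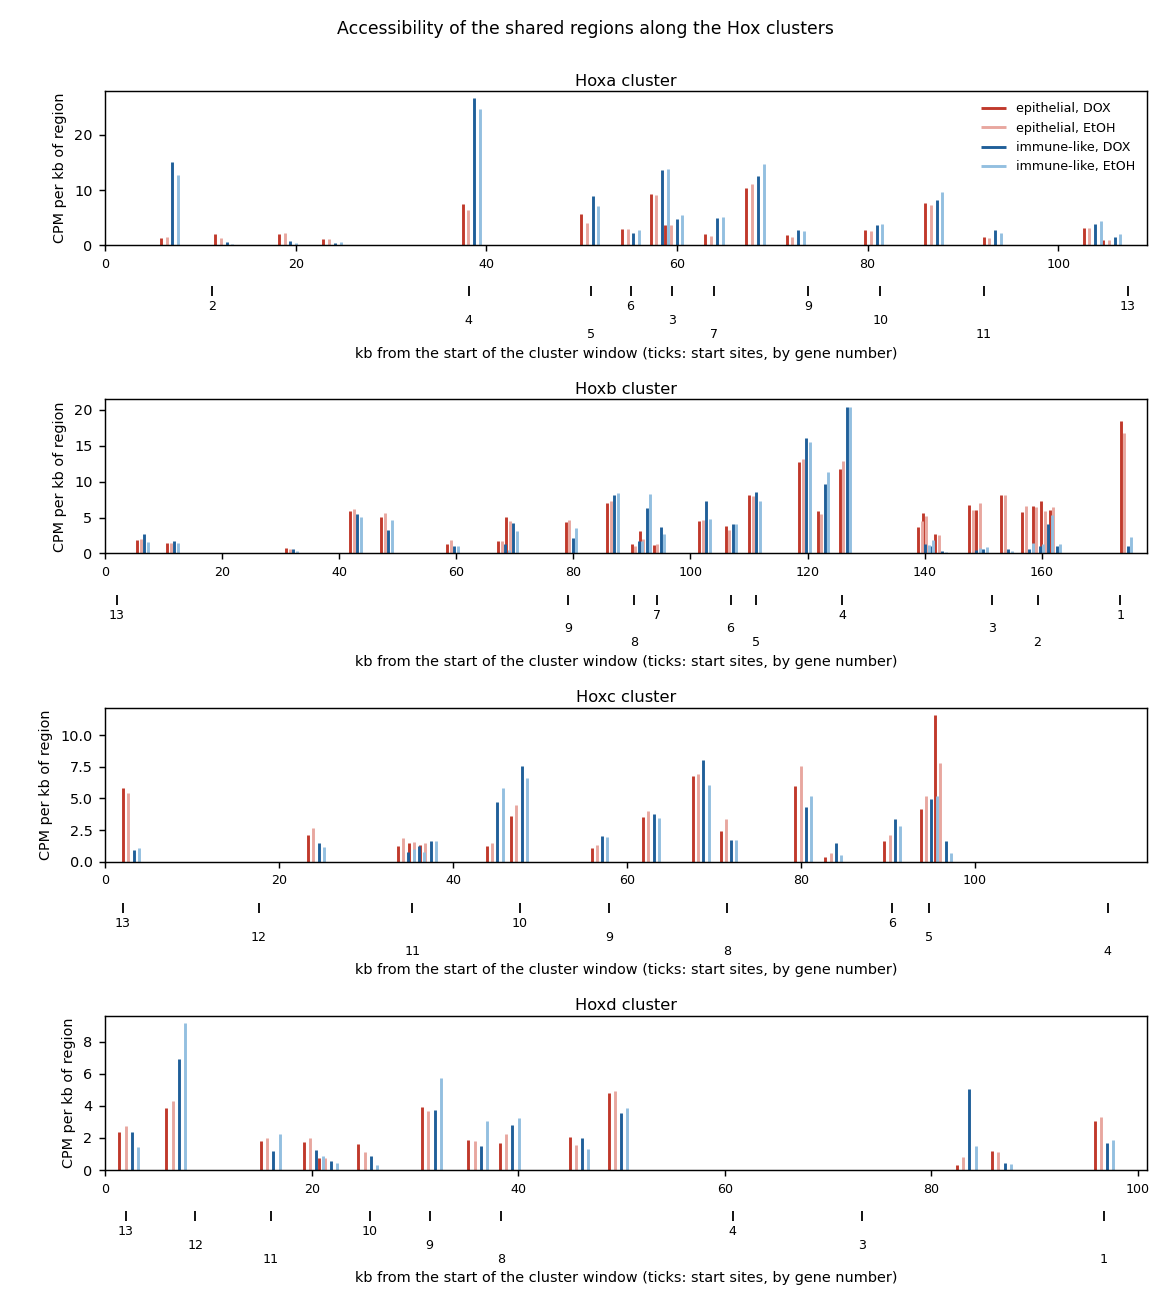
Accessibility of 77 shared regions along each cluster, in CPM per kb of region against the distance in kb from the start of the cluster window, with the start sites of the genes marked by number. The 4 lines at a region are epithelial DOX, epithelial EtOH, immune-like DOX and immune-like EtOH. In Hoxa the immune-like line at gene 4 reaches 26.6 in DOX, and in Hoxb the epithelial lines are the taller ones to the right of gene 4.

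In the immune-like nuclei the DOX to EtOH ratios were held by fewer counts, since EtOH had 283 such nuclei. At 2-fold 0 of 27 promoters tested were called higher in DOX and 1 lower, against 1.03% and 0.236% of all promoters. This was Hoxb1, with 74 counts in 1283 DOX nuclei and 29 in 283 EtOH nuclei (-1.19, -2.10 to -0.20). In the immune-like cluster 2 Hoxb1 had 0.85 CPM in DOX and 0.92 CPM in EtOH (31 and 6 counts). In cluster 3 it had 0.85 and 3.07 CPM (32 and 23 counts). Its epithelial ratio was 0.14 (0.02 to 0.26), so that the intervals lay on opposite sides of 0, and the difference between the classes was not tested. At 1.00 and 2.28 CPM per kb both immune-like values were far below the epithelial 18.5 and 16.8. Hoxd9 (-0.63, -1.17 to -0.05) and Hoxd11 (-0.91, -1.74 to -0.02) were the other members with intervals below 0, and 0 members had one above, where 11.0% of all promoters had an interval below 0 and 4.68% one above. For Hoxd9 the ratio was -1.23 (-1.89 to -0.55) in the immune-like cluster 2 and 0.41 (-0.74 to 1.80) in cluster 3. Of 60 regions tested 4 were called higher and 2 lower, against 5.73% and 0.739% of all regions. Within the immune-like clusters of nuclei 2 of 37 tested regions were called higher and 1 lower in cluster 2, against 6.48% and 0.609% of all regions, and 2 and 1 of 39 in cluster 3, against 4.37% and 0.851%. Over all immune-like nuclei the cluster sums differed by -0.03 in Hoxa, -0.01 in Hoxb, 0.13 in Hoxc and -0.01 in Hoxd, and all these intervals held 0. Within nuclei clusters 2 and 3 the Hoxb ratios were 0.23 (0.06 to 0.41) and -0.17 (-0.32 to -0.03). The Hoxc ratios were -0.12 (-0.37 to 0.14) and 0.35 (0.08 to 0.62), and the Hoxa and Hoxd intervals held 0 in both groups of nuclei.

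Taking all nuclei of a library together mixed the classes. The Hoxa sum was then 99.8 CPM in DOX and 73.1 CPM in EtOH (0.45, 0.41 to 0.49), whereas its ratios within epithelial and immune-like nuclei were 0.13 and -0.03. The share of immune-like nuclei, in which Hoxa was higher, moved with it, from 9.12% in EtOH to 41.8% in DOX, and its part in the difference was not tested. Of the 31 promoters 0 were called in either direction in all nuclei, against 3.88% higher and 1.82% lower of all promoters.

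The second comparison set immune-like against epithelial nuclei within each library, and the cluster sums differed most in Hoxa. The Hoxa cluster had 139 CPM in immune-like and 74.1 CPM in epithelial nuclei of DOX (log2 ratio 0.91, 0.85 to 0.96), and 142 and 67.6 CPM in EtOH (1.06, 0.97 to 1.16). Hoxb had the opposite direction on this scale, with 112 and 162 CPM (-0.52) in DOX and 113 and 154 CPM (-0.45) in EtOH, and turned when the median of all regions was set to 0, as did Hoxc. The ratios were -0.12 and -0.34 for Hoxc and 0.18 and 0.12 for Hoxd, whose EtOH interval held 0 (-0.08 to 0.31), and over all 4 clusters 0.07 and 0.11. Most regions of the genome had lower CPM in immune-like nuclei: the median log2 ratio of all shared regions was -1.15 in DOX and -1.50 in EtOH. Relative to that median all sums were higher in immune-like nuclei, at 2.05 and 2.56 for Hoxa, 0.62 and 1.05 for Hoxb, 1.03 and 1.16 for Hoxc and 1.32 and 1.62 for Hoxd, so that the signs of Hoxb and Hoxc turned. The median over all promoters was 0.26 and 0.32.

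At 2-fold 6 of the 31 promoters were called higher in immune-like nuclei of DOX and 5 lower, against 8.01% and 19.0% of all promoters, and 3 and 5 in EtOH, against 7.99% and 19.9%. Among those higher in both were Hoxa4 (1.85 in DOX and 1.95 in EtOH) and Hoxa7 (1.27 and 1.59). Hoxb7 (1.58), Hoxc6 (1.05) and Hoxc10 (1.06) were higher in DOX, where EtOH had 1.00, 0.39 and 0.56 with at most 88 immune-like counts each. Lower in both were Hoxb1 (-4.21 and -2.88), Hoxb2 (-2.73 and -2.33), Hoxc13 (-2.71 and -2.29) and Hoxa2 (-2.06 and -2.56). Hoxb9 was lower in DOX (-1.05, EtOH -0.43) and Hoxd10 in EtOH (-1.90, from 4 immune-like counts, DOX -0.87). Hoxc9 had the highest EtOH ratio of its cluster at 0.60 (DOX 0.86) and Hoxd9 that of its own at 0.65 (DOX -0.08), both below 2-fold. Relative to the median of all shared regions Hoxb1, Hoxb2 and Hoxc13 kept their direction in both libraries, and Hoxa2 at -2.06 and -2.56 lay below the medians too.

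Neighbouring regions of the Hoxa cluster went opposite ways. Hoxa2 had 38 immune-like and 244 epithelial counts in DOX. Near it Hoxa_r2, the region whose centre is printed above, had 1032 immune-like and 143 epithelial counts in DOX (3.48) and 151 and 215 in EtOH (3.19). The regions Hoxa_r4 and Hoxa_r6 in the long Hoxa3 transcript were lower in immune-like nuclei (-1.38 and -1.45 in DOX). Both were near the median of -1.15 over all shared regions in DOX. Hoxa_r7, the Hoxa4 promoter with 39 CpG in 300 bp, was higher (1.85 and 1.95).

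The Hoxb cluster was split at Hoxb4. The 20 shared regions up to the end of Hoxb4, from the Hoxb13 side, had 94.4 CPM in epithelial and 102 CPM in immune-like nuclei of DOX (0.11, 0.05 to 0.17), and 88.6 and 98.5 CPM in EtOH (0.15, 0.04 to 0.26). The 11 regions past the end of Hoxb4, with Hoxb3, Hoxb2 and Hoxb1, had 67.2 and 10.5 CPM in DOX (-2.68, -2.83 to -2.54) and 65.4 and 14.4 CPM in EtOH (-2.18, -2.47 to -1.90). In both libraries 10 of these 11 were at least 2-fold lower in immune-like nuclei. The border was chosen after the values were seen. Hoxb_r38 in Hoxb2 was the exception (-0.80 and -0.13). Across all 80 shared regions 11 were at least 2-fold higher and 19 lower in DOX, against 19.5% and 51.5% of all regions, and 9 and 24 in EtOH, against 16.1% and 55.7%, so that a smaller share of Hox regions than of all regions was lower in immune-like nuclei.

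**Figure D4:**
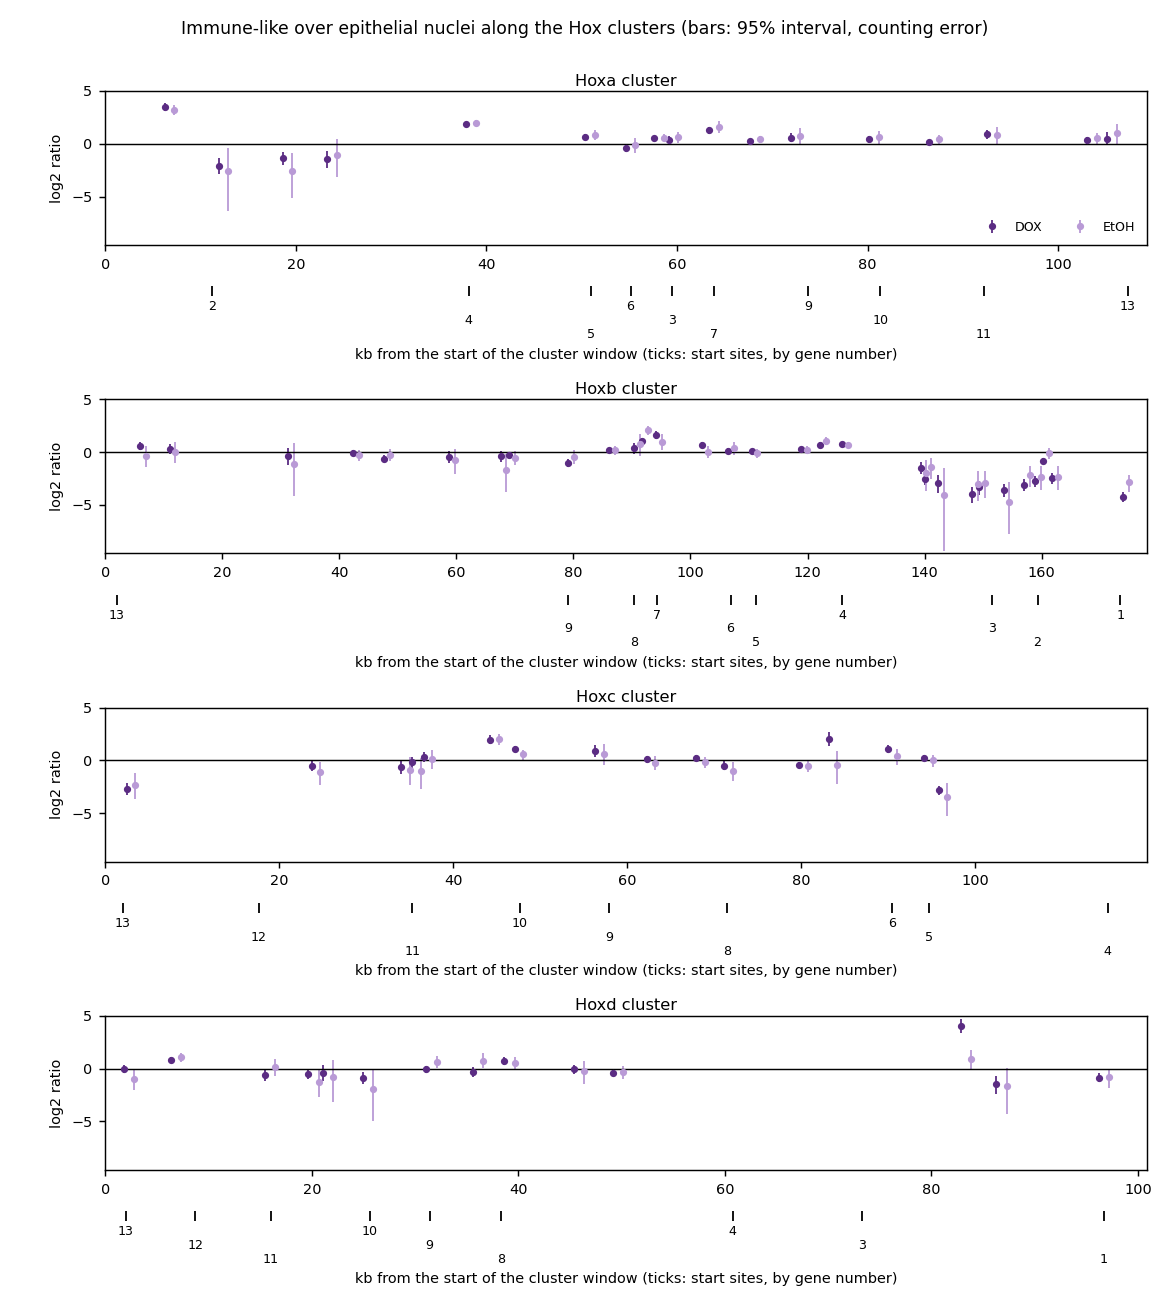
log2 ratio of immune-like over epithelial nuclei for 77 shared regions along each cluster, in DOX and EtOH, against the distance in kb from the start of the cluster window, with start sites marked by gene number. Bars are 95% intervals for counting error. In Hoxb the points right of gene 4 lie below 0 in both libraries, and most also below the medians of all shared regions at -1.15 and -1.50, down to -4.21 at gene 1 in DOX, and in Hoxa the points at gene 4 lie above 0 and those at gene 2 below.

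The exon region Hoxc_r22, which was higher in DOX than in EtOH epithelium, was depleted in immune-like nuclei, at -2.85 in DOX and -3.48 in EtOH, while the promoter of Hoxc5 had 0.25 in DOX and an interval of -0.58 to 0.53 in EtOH. Regions at member promoters held 41.3% of the Hox counts of epithelial nuclei in DOX and 52.4% of those of immune-like nuclei.

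The third comparison was between the epithelial classes. The Hoxc cluster was the most uneven: it had 94.2 CPM (85.9 to 103) in basal-like nuclei of EtOH, 48.0 CPM (46.1 to 49.9) in luminal progenitor-like and 52.7 CPM (50.4 to 55.1) in hormone-sensing luminal-like nuclei. In DOX the values were 76.8 CPM (67.6 to 87.0), 43.9 CPM (34.6 to 54.9) and 53.6 CPM (46.6 to 61.2), and in the unnamed DOX nuclei 47.3 CPM. The Hoxa sum ranged from 61.1 to 69.7 CPM over the 3 classes in EtOH and the Hoxd sum from 26.8 to 32.5 CPM. The basal-like group also had raised accessibility at fibroblast markers (median log2 0.68 over all nuclei, beside 0.85 for basal markers), and the part of this in the Hoxc values was not tested. The 14 fibroblast-like nuclei themselves had 757 CPM over the 4 clusters (650 to 877), above the 308 CPM of epithelial nuclei.

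The region with the highest basal-like over luminal progenitor-like ratio in EtOH was Hoxc_r19, with 6.17 against 0.48 CPM (3.67, 2.86 to 4.50). In DOX it had 1.71 CPM in basal-like nuclei and 0 counts in 58 luminal progenitor-like nuclei. The Hoxc13 region had 14.2 CPM in basal-like, 4.95 CPM in luminal progenitor-like and 3.38 CPM in hormone-sensing luminal-like nuclei of EtOH, and 16.5, 6.32 and 3.65 CPM in DOX. In EtOH its basal-like over luminal progenitor-like ratio was 1.52 (1.12 to 1.91). Hoxc8 (6.46 against 2.78 CPM) and Hoxc5 (8.06 against 3.81 CPM) were also higher in EtOH. In the hormone-sensing luminal-like cluster 4 of EtOH they had 2.88 and 3.76 CPM. In DOX they had 2.79 and 3.73 CPM in the basal-like cluster 7 (18 and 24 counts), beside 2.75 and 6.28 CPM in cluster 4. The excess over cluster 4 was therefore not seen in DOX. The exon region Hoxc_r22 had 17.7 against 6.11 CPM in EtOH (1.53). Hoxa6 went the other way in EtOH, with 3 counts (0.30 CPM) in basal-like and 251 (2.48 CPM) in luminal progenitor-like nuclei (-3.06, -6.87 to -0.93). Hoxb6 had 1.19 and 3.57 CPM there (-1.58, -3.05 to -0.43). The basal-like nuclei of DOX had 2.33 CPM at Hoxa6 (15 counts) and 2.64 CPM at Hoxb6 (17 counts), above their EtOH values.

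Of 77 regions tested 8 were at least 2-fold higher and 5 lower in basal-like than in luminal progenitor-like nuclei of EtOH, against 16.6% and 20.9% of all regions, and 7 and 3 of 68 against hormone-sensing luminal-like nuclei, against 17.2% and 26.9%. Of the 8 higher regions 6 lay in the Hoxc cluster. Between the luminal classes 0 of 78 were higher and 2 lower in hormone-sensing nuclei, against 24.0% and 22.1%. Of these 2, Hoxb_r31 in the Hoxb3 intron, printed above with its 1 CpG, had 0.56 CPM in hormone-sensing and 3.53 CPM in luminal progenitor-like nuclei (-2.66, -3.40 to -2.0), from 41 and 357 counts. It was also near absent in immune-like nuclei, with 27 counts in DOX and 2 in EtOH. The other was Hoxd_r16, whose peaks overlapped poorly.

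**Figure D5:**
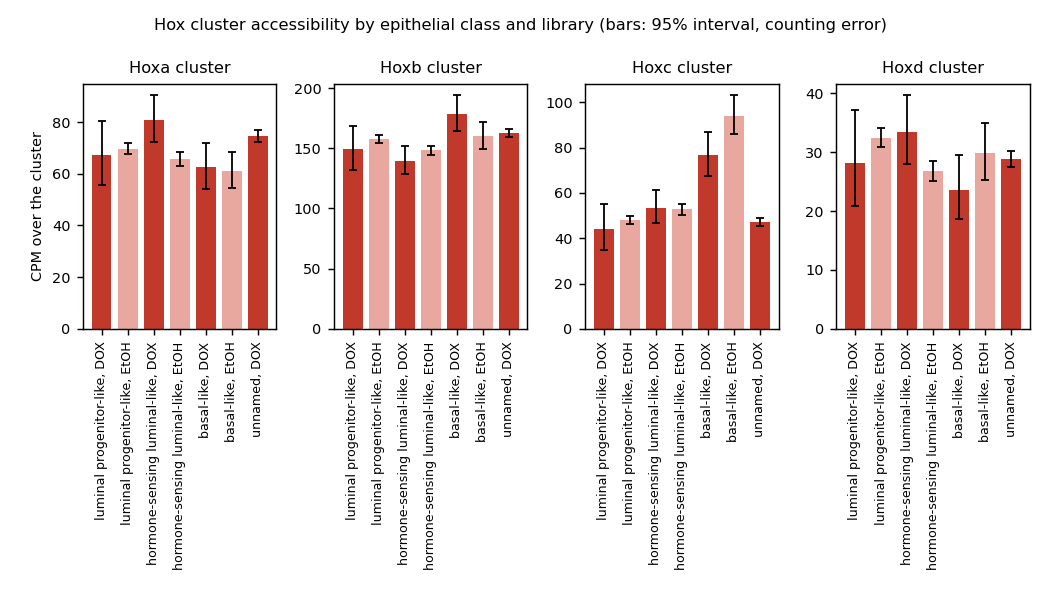
Summed accessibility of each Hox cluster in CPM, by epithelial class and library, for groups with at least 50 nuclei. Bars start at 0, and error bars are 95% intervals for counting error. In the Hoxc panel the basal-like bars, at 76.8 in DOX and 94.2 in EtOH, stand above the other bars, which lie between 43.9 and 53.6.

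Genes that work with or on the Hox clusters were taken from lists written with earlier results of these data known. In DOX against EtOH epithelial nuclei 0 of 53 tested promoters of the 6 lists were at least 2-fold apart, where 0.826% of all promoters were higher and 1.09% lower. The counts of intervals that follow stand beside 23.2% above 0 and 14.6% below 0 for all promoters. Of the HOX cofactors of the PBX, MEIS and PKNOX families 1 of 8 tested had an interval above 0 (Meis2, 0.39) and 4 below (Pknox1 -0.77, Pbx2 -0.26, Pbx4 -0.21, Meis3 -0.16), with a median of -0.10 against 0.02 over all promoters. Of the Polycomb genes, which encode the complexes that keep Hox genes silent, 5 of 14 were above and 1 below (Ezh1, -0.13), with a median of 0.03, and of the Trithorax genes and H3K27 demethylases, which act against them, 2 of 9 and 1 of 9, with a median of -0.01. Of the upstream regulators 4 of 9 were above 0 and 0 below, with a median of 0.20: Gdf11, a signal for posterior Hox genes (0.47), Cyp26b1, which degrades retinoic acid (0.40), the retinoic acid receptor gene Rarb (0.35) and Ctcf (0.33).

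Of the genes beside the clusters 1 of 8 was above 0 (Smug1, 0.46) and 3 below (Cbx5, -0.40, with Hibadh and Mtx2), with a median of -0.07. Of the noncoding transcripts in the clusters 5 of 16 could be tested, and 2 had an interval above 0: Hoxaas2, on the same region as Hoxa2 (0.62), and Mir615, which has the region of the Hoxc5 promoter and that of the exon among its own (0.30). ATAC counts carry no strand, so such pairs cannot be told apart. Between the classes, beside 8.01% higher and 19.0% lower of all promoters in DOX and 7.99% and 19.9% in EtOH, 2 of 15 Polycomb genes were at least 2-fold higher in immune-like nuclei and 0 lower in both libraries, Phc2 (4.68 in DOX and 5.06 in EtOH) and Bmi1 (1.44 and 1.80). Of 9 Trithorax and demethylase genes 0 were higher and 1 lower, Kdm6b (-1.67 and -2.32). Of 9 upstream regulators 4 were lower in both, among them Rarb (-2.52 and -2.0), Rarg (-2.02 and -2.25) and Cdx2 (-1.90 and -2.17), while Cdx1 was higher in both (1.57 and 1.42) and Ctcf in EtOH (1.08, DOX 0.66). Of 8 HOX cofactors 0 were called in either direction.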

How the data were processed

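Single-cell ATAC-seq was analysed from 2 libraries, 1 per group, of 7600 loaded nuclei each. The deposited files hold, per the file headers, peaks called by the authors for each library with Cell Ranger ATAC 2.0.0 on mm10, filtered barcodes, and whole-number counts of transposase cuts per peak and nucleus; they were used as deposited, with a depth of 224762118 and 211963715 counts. The labels name Cell Ranger with no version. Peaks of the libraries were merged where they overlapped by 1 bp, and regions with a peak in both were called shared. Nuclei were clustered by latent semantic indexing (components 2 to 30) and Leiden clustering without the Hox regions, and named from marker lists. A putative doublet score was computed and the nuclei with the highest scores were left out as an alternative only.

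Counts were summed per library and class. A promoter is every shared region within 1 kb of the start site of the principal coding transcript. Counts have exact Poisson intervals and ratios exact conditional binomial intervals, both from the counts divided by 2, since each fragment gives up to 2 cuts. A feature was tested with at least 100 counts over both groups, and called at 2-fold. With 1 library per group no p-value was computed. Genes were named by rule: the highest epithelial promoter in EtOH of each cluster, the 5 highest and 5 lowest epithelial DOX to EtOH ratios, members whose intervals lay on opposite sides of 0 in the classes, the highest and lowest immune-like to epithelial ratio in EtOH of each cluster, and the regions with the most counts or the extreme epithelial ratios. Other items were added after their values were seen. The members and all lists were chosen with earlier results of these data known. Scripts were tested on simulated data. Python 3.11.15, numpy 2.4.6, scipy 1.17.1, pandas 2.3.3, scikit-learn 1.9.0, leidenalg 0.10.2 and bedtools 2.31.1 were used. The alternatives covered scaling, the promoter window, the overlap of peaks, weighting, thinning and doublets, and leaving out barcodes found in both libraries was added after seeing the data. The values of 1 member and of 2 regions are not reported here, though they stay in the sums and counts.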

Additional observations from a re-analysis of the deposited data

Results flagged for a closer look

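The promoter region of Hoxb1 was lower in DOX than in EtOH immune-like nuclei (log2 ratio -1.19, interval -2.10 to -0.20, from 74 and 29 counts) and slightly higher in epithelial nuclei (0.14, 0.02 to 0.26). It stands out because the intervals lie on opposite sides of 0, and the difference between the classes was not tested. The lower value lay in the immune-like cluster 3, with 0.85 CPM in DOX and 3.07 CPM in EtOH (32 and 23 counts). Cluster 2 had 0.85 and 0.92 CPM (31 and 6 counts). Hoxc_r19 had 1.53 (0.18 to 3.30) in immune-like and -0.89 (-1.55 to -0.27) in epithelial nuclei, and Hoxd_r16 had 1.77 (0.95 to 2.72) and -1.35 (-2.06 to -0.68). Both are set apart by the same opposite directions, also not tested, and both are regions whose peaks overlapped by only 22.8% and 40.4% of the longer peak between the libraries.

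Nuclei outside the epithelial and immune-like classes entered the sums over all nuclei and no comparison between the libraries of their own. In the 14 fibroblast-like nuclei the 4 clusters had 757 CPM (650 to 877, from 355 counts, 58 of them in 1 nucleus), against 308 CPM in epithelial and 329 CPM in immune-like nuclei. In the 68 nuclei of low depth Hoxc10 had 91.1 CPM (68.3 to 119, from 106 counts in 27 nuclei), against 3.86 CPM in epithelial and 6.92 CPM in immune-like nuclei.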

How the results depend on the processing

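No paired analysis was possible because DOX and EtOH had 1 library apiece. Of the cluster sums 35 of 40 values in DOX against EtOH epithelial nuclei and 63 of 72 in immune-like against epithelial nuclei moved by less than their counting interval. In the latter 4 of 8 sums, those of Hoxb and Hoxc, changed sign with the scaling. With the median of all shared regions set to 0, the epithelial sums were 0.19 for Hoxa and 0.13 for Hoxb. The immune-like to epithelial sums were then 2.05 for Hoxa, 0.62 for Hoxb, 1.03 for Hoxc and 1.32 for Hoxd in DOX, and 2.56, 1.05, 1.16 and 1.62 in EtOH, with 20 promoters higher and 3 lower in DOX and 22 and 2 in EtOH. Within 500 bp of the start site 2 promoters were lower in each library, since Hoxb1, Hoxc13 and Hoxa2 have no region there, and within 2 kb 7 were higher in EtOH. In that window the epithelial DOX to EtOH ratios of Hoxb4, Hoxb7 and Hoxc5 were 0.34, 0.36 and 0.30. With equal weight for clusters 4 and 7, where 22 promoters and 55 regions could be tested, the Hoxa sum was 0.21 and the Hoxd sum 0.043, 1 promoter was higher (Hoxa6, 1.46) and 1 lower (Hoxc11, -1.07), and 1 region was higher. Under that weighting other single promoters gave 0.29 (Hoxa3), -0.13 (Hoxa5), -0.18 (Hoxa10), -0.26 (Hoxb1), 0.20 (Hoxb4), 0.03 (Hoxc6), 0.07 (Hoxc10), 0.29 (Hoxd1), 0.42 (Hoxd9) and -0.68 (Hoxd13). Thinned nuclei gave a Hoxa sum of 0.056 and an immune-like to epithelial Hoxa ratio of 0.98 in DOX. Without the highest doublet scores 2 regions were lower, and under the stricter overlap of peaks 0 were. Apart from effects built into an alternative, the cause was not tested. The counts of promoters in all nuclei and of shared and unshared regions stayed within 1.5 times in 10 of 10 and 12 of 12 values, and leaving out the 46 nuclei with barcodes in both libraries moved no count of calls past that limit. Depth limits the values of the small groups, with 283 EtOH immune-like nuclei and as few as 3 counts at a promoter, and 77 DOX nuclei in cluster 7 and as few as 2.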
